A study of Mus musculus with 15 samples.

Results

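The genes described here encode the mouse Fc receptors and the chains that carry their signal: the immunoglobulin G receptors *Fcgr1*, *Fcgr2b*, *Fcgr3* and *Fcgr4*, the neonatal Fc receptor *Fcgrt*, the immunoglobulin E receptor chain *Fcer1a*, the adaptors *Fcer1g* and *Tyrobp*, and the kinase *Syk*. They were chosen by symbol, and all 9 of the 9 listed symbols were among the 561 genes of the immunology panel that was counted. Of the 9, 8 passed the filter on low counts and were tested, together with 426 tested genes in all. *Fcer1a* did not pass.

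Spleens came from female C57BL/6J mice aged 6 to 8 weeks. Sham mice had neither radiation nor a burn. WBIR mice received whole-body ionising radiation, 9 Gy from a caesium source. RCI mice received the same 9 Gy combined with a contact burn over 20% of the body surface. For the burn procedure the study describes anaesthesia, shaving, morphine and injected fluid, which it does not describe for mice with radiation alone. It states that Sham groups of the burn model had the same procedure without the burn and the radiation. Whether the Sham spleens used here had it is not given, so WBIR and Sham mice may also differ in anaesthesia, morphine and fluid. WBIR+MSC-EVs and RCI+MSC-EVs mice were also given, into a vein 72 hours after injury, extracellular vesicles released by bone marrow mesenchymal stem cells of the same mouse strain, and the spleens were taken 48 hours after that. The labels name PBS for untreated RCI mice, and the study's text describes saline for mice without vesicles. Each of the 5 groups had 3 samples. RNA was taken from spleen cell suspensions after lysis of red blood cells, so mature red cells were not meant to be part of the sample. Whether the 3 samples of a group are 3 mice is not given in the sources used here, and the p-values therefore measure the spread between these samples, which may be technical. There was no group with a burn alone and no Sham group with vesicles.

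An activating Fc receptor binds the constant part of an antibody that has coated a particle, and passes the signal on through an immunoreceptor tyrosine-based activation motif, or ITAM. In the mouse the high-affinity receptor encoded by *Fcgr1* and the lower-affinity receptors encoded by *Fcgr3* and *Fcgr4* do this through the shared FcR gamma chain, the product of *Fcer1g*. The phosphorylated motif recruits the kinase Syk. The receptor encoded by *Fcgr2b* carries an inhibitory motif instead and is the Fc receptor of B cells, where it dampens signalling by the antigen receptor, but it is also found on macrophages. In the spleen, red pulp and marginal zone macrophages use these receptors to clear antibody-coated cells and microbes.

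Values are barcode counts scaled to the geometric mean of 14 reference genes, given as mean ± SD of 3 samples, and fold changes are on the log2 scale with their standard error (SE). A gene is called where edgeR's quasi-likelihood test gave an adjusted p under 0.05. Probes differ in how well they capture their target and the probe lengths were not used, so levels are compared between samples for the same gene and not between genes. Total counts ran from 90127 to 598872 per sample, and WBIR+MSC-EVs replicate 1 had the lowest. RCI replicate 3 stood apart from the other RCI samples. It differed from them by 149 and 191 in chi-square per degree of freedom over genes, against 9.35 between those. The 3 Sham samples, which all Sham comparisons share, were also uneven and differed from each other by 65.1, 86.7 and 128. WBIR+MSC-EVs replicate 1 differed by 39.2 and 30.9 from the others of its group. Over all genes tested, the median log2 fold change against Sham was -0.74 in WBIR, -0.61 in WBIR+MSC-EVs, -0.53 in the RCI group and -0.45 in the RCI+MSC-EVs group. With TMM scaling, which centres most genes, these medians were -0.03, -0.05, 0.01 and -0.08. Markers of macrophages and monocytes and of B cells, the spleen cells that carry most of these receptors, were counted in every group, and none of the markers on either list was at the smallest stored count of 1 throughout a group.

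*Fcgr2b*, *Fcgr4* and *Fcgr3* lie side by side on mouse chromosome 1, in that order, and *Fcer1g* follows after 7 other protein-coding genes in the RefSeq annotation of GRCm38.p6. *Fcgr1* is on chromosome 3, *Fcgrt* and *Tyrobp* on chromosome 7, and *Syk* on chromosome 13. The 250 bases before the transcription start are shown for the receptors of the chromosome 1 group, in which the inhibitory receptor and its neighbours moved in opposite directions, and for *Fcgr1*, the member with the largest rise. They were read from RefSeq's GRCm38.p6 promoter table and run 5′ to 3′ on the strand of the gene. The windows are chr1:170976072-170976321 (minus strand) for *Fcgr2b*, chr1:171018676-171018925 (plus strand) for *Fcgr4*, chr1:171059404-171059653 (minus strand) for 1 of the listed starts of *Fcgr3* and chr3:96293970-96294219 (minus strand) for *Fcgr1*. Capitals mark matches to the motifs described next.
Fcgr2b: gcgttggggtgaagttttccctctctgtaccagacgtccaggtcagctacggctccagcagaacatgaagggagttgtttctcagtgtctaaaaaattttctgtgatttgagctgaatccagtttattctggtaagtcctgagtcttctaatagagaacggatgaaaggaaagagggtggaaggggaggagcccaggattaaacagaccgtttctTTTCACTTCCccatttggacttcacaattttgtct
Fcgr4: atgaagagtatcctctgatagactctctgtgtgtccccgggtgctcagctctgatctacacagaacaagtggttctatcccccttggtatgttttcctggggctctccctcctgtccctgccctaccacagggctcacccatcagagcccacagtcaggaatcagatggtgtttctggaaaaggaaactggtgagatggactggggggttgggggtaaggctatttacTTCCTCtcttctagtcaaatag
Fcgr3: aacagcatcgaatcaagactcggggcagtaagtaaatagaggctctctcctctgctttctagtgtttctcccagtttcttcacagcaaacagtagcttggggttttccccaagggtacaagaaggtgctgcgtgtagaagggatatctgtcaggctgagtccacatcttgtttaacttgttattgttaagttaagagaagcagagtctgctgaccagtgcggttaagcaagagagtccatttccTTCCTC
Fcgr1: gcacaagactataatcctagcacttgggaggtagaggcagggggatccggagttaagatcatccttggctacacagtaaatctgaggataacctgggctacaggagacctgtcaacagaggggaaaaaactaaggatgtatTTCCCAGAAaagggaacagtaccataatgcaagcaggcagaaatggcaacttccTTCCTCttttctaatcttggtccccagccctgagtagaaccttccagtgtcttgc

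In these 250 bases 3 short motifs were searched on both strands. GAGGAA is a core bound by PU.1, the ETS factor of macrophages and B cells. The composite at which PU.1 and an interferon regulatory factor can bind together was searched as GGAA and GAAA with any 2 bases between them. The type of site bound by STAT factors was searched as TTC and GAA with any 3 bases between them. The first was found in 23.3% of all 32851 promoter entries, the second in 2.3% and the third in 7.02%. TTCCTC, the core read on the other strand, began 22 bases before the start of *Fcgr4*, 6 bases before the *Fcgr3* start shown and 55 bases before the *Fcgr1* start. *Fcgr1* also held TTCCCAGAA, a match to the STAT type, beginning 109 bases before its start. *Fcgr2b* held the composite TTTCACTTCC, beginning 35 bases before its start, and no separate match to GAGGAA. Among the members not shown, GAGGAA began 9 bases before a listed start of *Syk*, which fell, and 216 bases before the start of *Fcer1a*. *Fcer1g*, *Fcgrt* and the other listed start of *Syk* held none of the 3 motifs in this window, and no match overlapped another. *Tyrobp* had no promoter entry and was not searched. These matches describe letters in the window and were not tested against the expression values.

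The question put by the Sham comparisons was how radiation, with or without a burn and with or without vesicles, changed splenic immune genes. All 4 injured groups gave the same split among the 8 tested members. *Fcgr1*, *Fcgr3*, *Fcgr4*, *Fcgrt*, *Fcer1g* and *Tyrobp* rose and *Fcgr2b* and *Syk* fell, so that 6 were called higher and 2 lower in each comparison. Of all genes tested, 21.6% were called higher and 46.9% lower in WBIR, 22.8% and 45.1% in WBIR+MSC-EVs, 26.5% and 43.0% in RCI, and 23.9% and 41.3% in RCI+MSC-EVs. The members' median log2 fold change was 2.26, 2.39, 2.28 and 2.53 in the same order, beside the medians over all tested genes given above. The 4 comparisons share the same 3 Sham samples, so their likeness is not a repeat of the result. The share of all tested genes whose samples lay wholly apart from Sham was not counted. Such separation is given below for single members as description only, as it may be common among all genes. With TMM scaling 132 to 151 genes were called higher and 147 to 150 lower, in place of 92 to 113 and 176 to 200, and 7 of the 8 members kept their call.

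**Figure D1:**
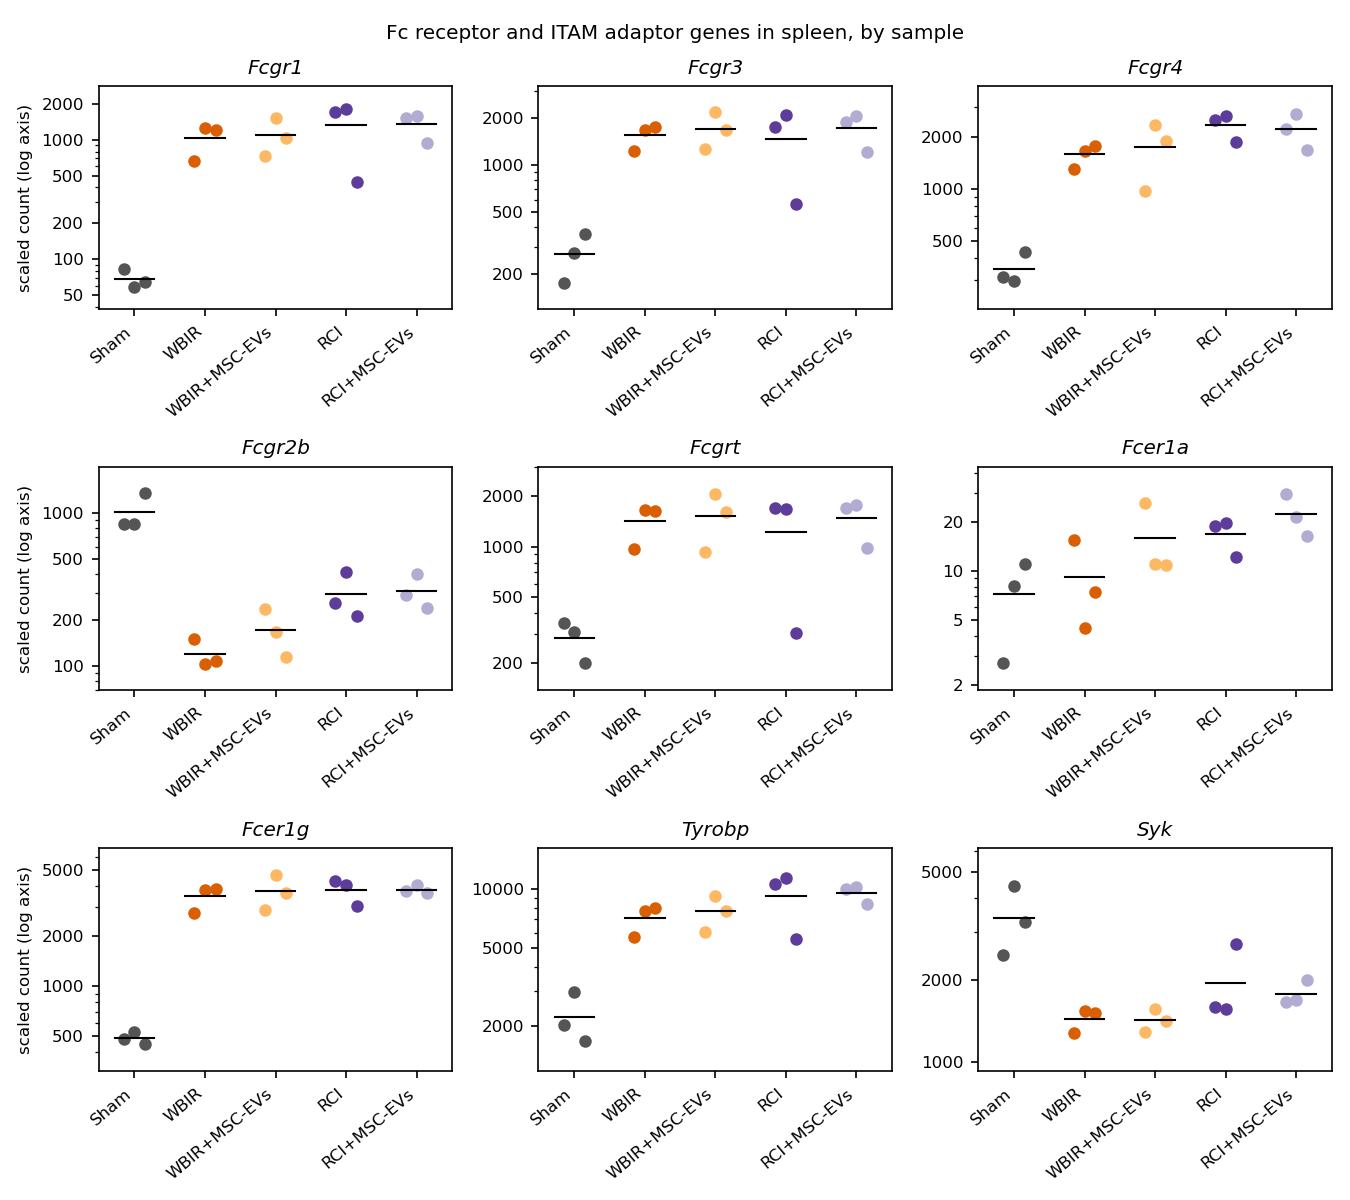
Scaled counts of the 9 genes (log axis, different range in each panel) in every sample of the 5 groups, with points for samples and a line for the group mean. The Sham samples lie below the injured samples for *Fcgr1*, *Fcgr3*, *Fcgr4*, *Fcer1g* and *Tyrobp* and above them for *Fcgr2b*, while 1 RCI sample reaches the Sham range for *Fcgrt* and for *Syk*.

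*Fcgr1*, the high-affinity receptor for immunoglobulin G, had the largest rise of the members. Its scaled counts were 82.8, 59.2 and 64.9 in Sham, 670, 1250 and 1212 in WBIR, 737, 1525 and 1032 in WBIR+MSC-EVs, 1707, 1831 and 445 in the RCI group and 1528, 1586 and 942 in the RCI+MSC-EVs group. Every injured sample was above every Sham sample, and the lowest injured one was RCI replicate 3. The log2 fold change was 3.90 ± 0.51 (SE) in WBIR, 3.98 in WBIR+MSC-EVs, 4.25 ± 0.52 in the RCI group and 4.28 in the RCI+MSC-EVs group, up to a 19.4-fold rise, with adjusted p of 1.5e-05 in WBIR and 8.0e-06 in RCI. *Fcgr1* ranked 5, 5, 8 and 5 from the top among all 426 genes tested in these comparisons. Its Sham values rest on 22 to 91 raw counts. Without RCI replicate 3 the log2 fold change in RCI was 4.66.

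*Fcgr4*, an activating receptor of monocytes, macrophages and neutrophils, was at 311, 293 and 432 in Sham, 1319, 1676 and 1783 in WBIR, 979, 2366 and 1916 in WBIR+MSC-EVs, 2518, 2655 and 1874 in the RCI group and 2252, 2735 and 1693 in the RCI+MSC-EVs group. All injured samples were higher than all Sham samples, and the 3 RCI samples were also above the 3 WBIR samples. Its log2 fold change was 2.20 ± 0.32 in WBIR, 2.34 in WBIR+MSC-EVs, 2.76 ± 0.33 in the RCI group and 2.68 in the RCI+MSC-EVs group. *Fcgr3*, the low-affinity activating receptor that natural killer cells and macrophages carry, averaged 270 ± 93.1 in Sham, 1560 ± 291 in WBIR, 1710 ± 455 in WBIR+MSC-EVs, 1475 ± 809 in the RCI group and 1720 ± 449 in the RCI+MSC-EVs group. It rose by 2.53 ± 0.44 in WBIR and 2.45 ± 0.44 in RCI on the log2 scale. RCI replicate 3, at 563, was its lowest injured sample and was still above the highest Sham sample, at 362. Cross-hybridisation between the probes of these related receptors was not assessed.

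*Fcgr2b*, the inhibitory receptor, went the other way. Its scaled counts were 846, 842 and 1347 in Sham, 151, 103 and 108 in WBIR, 236, 168 and 115 in WBIR+MSC-EVs, 258, 411 and 214 in the RCI group and 292, 403 and 238 in the RCI+MSC-EVs group. No injured sample reached the lowest Sham sample, and the mean was lowest in WBIR, at 121 ± 26.3. *Fcgr2b* fell by 3.07 ± 0.35 on the log2 scale in WBIR (8.39-fold, adjusted p = 4.6e-06), by 2.57 ± 0.35 in WBIR+MSC-EVs, by 1.79 ± 0.33 in RCI (3.45-fold, adjusted p = 0.00030) and by 1.70 ± 0.33 in RCI+MSC-EVs. Relative to the median gene the change was -2.33 in WBIR and -1.26 in RCI. The 6 listed B cell markers all fell in all 4 comparisons, and their summed scaled count was 16875 to 18252 in Sham, 676 to 1021 in WBIR, 792 to 891 in WBIR+MSC-EVs, 418 to 864 in the RCI group and 759 to 1196 in the RCI+MSC-EVs group. The part of the B cell markers' fall in that of *Fcgr2b* was not tested, and in these bulk samples fewer cells of a type and less RNA per cell cannot be told apart.

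*Fcgrt* encodes the neonatal Fc receptor, which recycles immunoglobulin G inside cells and spares it from degradation. It averaged 285 ± 75.4 in Sham, 1421 ± 397 in WBIR, 1530 ± 569 in WBIR+MSC-EVs, 1230 ± 802 in the RCI group and 1495 ± 441 in the RCI+MSC-EVs group. The log2 fold change was 2.32 ± 0.54 in WBIR, 2.43 in WBIR+MSC-EVs, 2.11 ± 0.53 in the RCI group and 2.40 in the RCI+MSC-EVs group, all called. In RCI the samples were at 1710, 1676 and 305, and replicate 3 thus lay within the Sham range of 201 to 347. With TMM, median-of-ratios and total count scaling, all RCI samples lay above all Sham samples. Without RCI replicate 3 the log2 fold change in RCI was 2.58 ± 0.37.

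*Fcer1a*, the binding chain of the high-affinity immunoglobulin E receptor of mast cells and basophils, had 3 to 32 raw counts per sample and was not tested in the main analysis. Its scaled counts averaged 7.26 ± 4.18 in Sham, 9.13 ± 5.75 in WBIR, 15.9 ± 8.59 in WBIR+MSC-EVs, 16.9 ± 4.12 in the RCI group and 22.5 ± 6.64 in the RCI+MSC-EVs group. Its Sham range overlapped with those of WBIR and WBIR+MSC-EVs, and lay below those of RCI and RCI+MSC-EVs. With no filter on low counts edgeR called it in 1 of the 4 Sham comparisons, RCI+MSC-EVs, at 1.64 ± 0.56 (adjusted p = 0.021), and gave an adjusted p of 0.083 in RCI. Counting error is large at such low counts. Of the 5 listed mast cell and basophil markers 1, *Kit*, was on the panel, and its scaled count was between 6.46 and 27.3 in all samples.

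The adaptor genes rose with the activating receptors. *Fcer1g* was at 479, 527 and 450 in Sham, 2759, 3811 and 3885 in WBIR, 2887, 4668 and 3666 in WBIR+MSC-EVs, 4331, 4068 and 3059 in the RCI group and 3755, 4054 and 3631 in the RCI+MSC-EVs group. Every injured sample was far above every Sham sample. *Fcer1g* had the smallest adjusted p of the members in each Sham comparison (5.7e-07 in WBIR and 5.3e-07 in RCI), with log2 fold changes of 2.85 ± 0.26 in WBIR, 2.95 in WBIR+MSC-EVs, 2.98 ± 0.26 in the RCI group and 2.98 in the RCI+MSC-EVs group. *Tyrobp* encodes DAP12, the ITAM adaptor of TREM receptors and of activating natural killer cell receptors. It averaged 2219 ± 667 in Sham, 7126 ± 1252 in WBIR, 7692 ± 1613 in WBIR+MSC-EVs, 9209 ± 3161 in the RCI group and 9584 ± 1042 in the RCI+MSC-EVs group, with log2 fold changes of 1.68 ± 0.33, 1.80, 2.05 ± 0.33 and 2.11. No injured sample of *Tyrobp* overlapped with Sham.

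*Syk*, the kinase that both adaptors recruit and that B cell receptors also use, fell. It was at 2483, 4432 and 3270 in Sham, 1281, 1538 and 1520 in WBIR, 1287, 1568 and 1419 in WBIR+MSC-EVs, 1588, 1564 and 2714 in the RCI group and 1660, 1696 and 2001 in the RCI+MSC-EVs group. All but 1 of the injured samples were below all Sham samples, the exception being RCI replicate 3. The log2 fold change was -1.23 ± 0.27 in WBIR (adjusted p = 0.00097), -1.25 ± 0.27 in WBIR+MSC-EVs, -0.79 ± 0.27 in RCI (adjusted p = 0.015) and -0.93 ± 0.27 in RCI+MSC-EVs. The calls depended on the scaling: with TMM the values were -0.56, -0.68, -0.21 and -0.55, of the same sign and with adjusted p from 0.055 to 0.53, so that *Syk* was not called in any Sham comparison. The RCI call was also lost without Sham replicate 2 (-0.56, adjusted p = 0.072) and without RCI replicate 1 or 2 (both -0.66, adjusted p = 0.067 and 0.069), whereas without RCI replicate 3 the value was -1.11. Relative to the median gene it changed by -0.49, -0.64, -0.27 and -0.48.

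**Figure D2:**
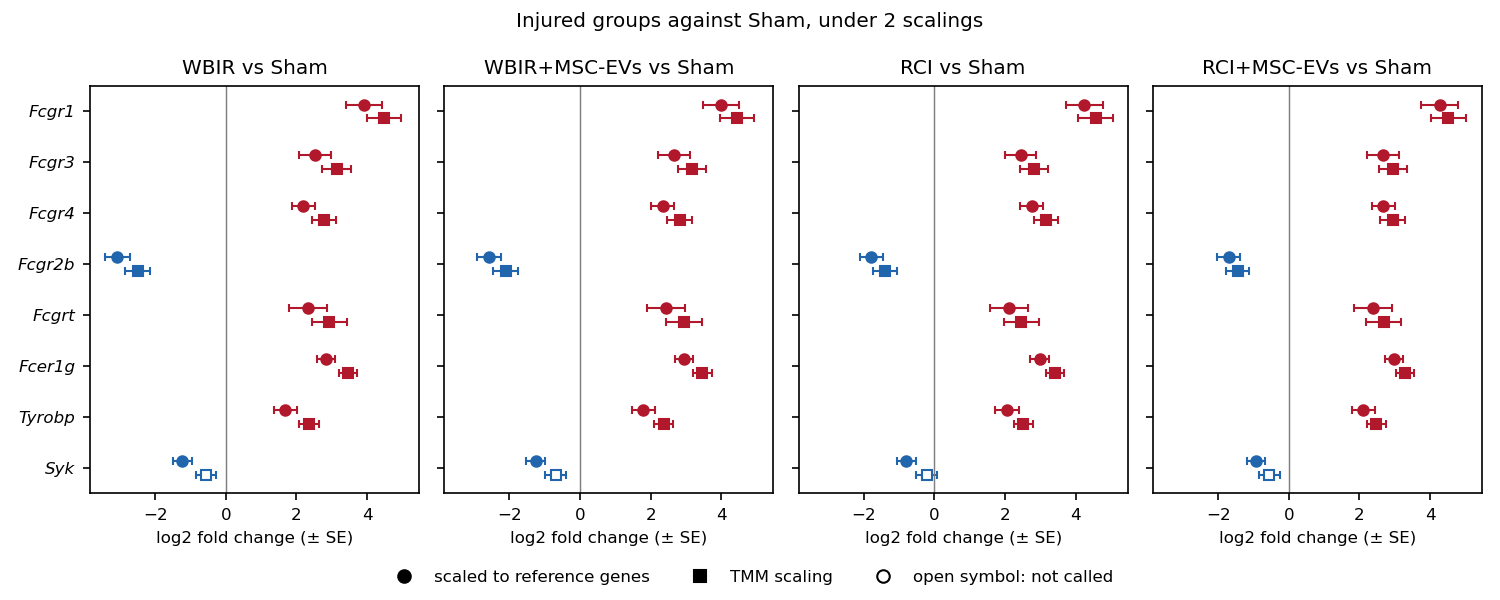
Log2 fold change against Sham (x axis, bars are ± 1 SE) of the 8 tested members in the 4 injured groups, with circles for counts scaled to the reference genes and squares for TMM scaling, red for higher, blue for lower and open symbols for values that were not called. The 6 rises and the fall of *Fcgr2b* lie on the same side of 0 under both scalings, and *Syk* is open in all 4 panels under TMM.

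Ratios of raw counts within a sample need no scaling to reference genes, and they were compared across groups with no test. The height of such a ratio depends on the probes, so the shift between groups is what is given. The count of *Fcgr1* per count of *Fcgr2b* was 0.048 to 0.098 in Sham, 4.43 to 12.1 in WBIR, 3.12 to 9.09 in WBIR+MSC-EVs, 2.07 to 6.61 in the RCI group and 3.94 to 5.24 in the RCI+MSC-EVs group. *Fcgr4* per *Fcgr2b* was 0.321 to 0.368 in Sham, 8.72 to 16.5 in WBIR and 6.46 to 9.76 in RCI, and *Fcgr3* per *Fcgr2b* was 0.208 to 0.323 in Sham, 8.11 to 16.3 in WBIR and 2.63 to 6.82 in RCI. All 3 ratios of an activating receptor to the inhibitory one thus separated Sham from every injured sample. This separation had to follow, because every injured sample lay above Sham for the activating receptors and below it for *Fcgr2b*. For *Fcgr3* the WBIR and RCI ranges also lay apart, while those of *Fcgr1* and *Fcgr4* overlapped. The adaptor gene *Fcer1g* per *Fcgr2b* was 18.2 to 36.8 in WBIR and 9.90 to 16.8 in RCI, likewise apart.

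The kinase gene and *Fcer1g* moved apart as well. This restates the changes of the single genes, of which the rise of *Fcer1g* was the larger (log2 fold change of 2.85 in WBIR, against -1.23 for *Syk*). The ratio does not test whether *Syk* itself fell. *Syk* per *Fcer1g* was 5.19 or more in every Sham sample, 0.391 to 0.464 in WBIR, 0.336 to 0.446 in WBIR+MSC-EVs, 0.367 to 0.887 in the RCI group and 0.418 to 0.551 in the RCI+MSC-EVs group. *Fcer1g* per *Tyrobp* shifted less, from 0.178 to 0.269 in Sham to 0.485 to 0.495 in WBIR and 0.358 to 0.548 in RCI. The WBIR and WBIR+MSC-EVs ranges overlapped for each ratio given for both.

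**Figure D3:**
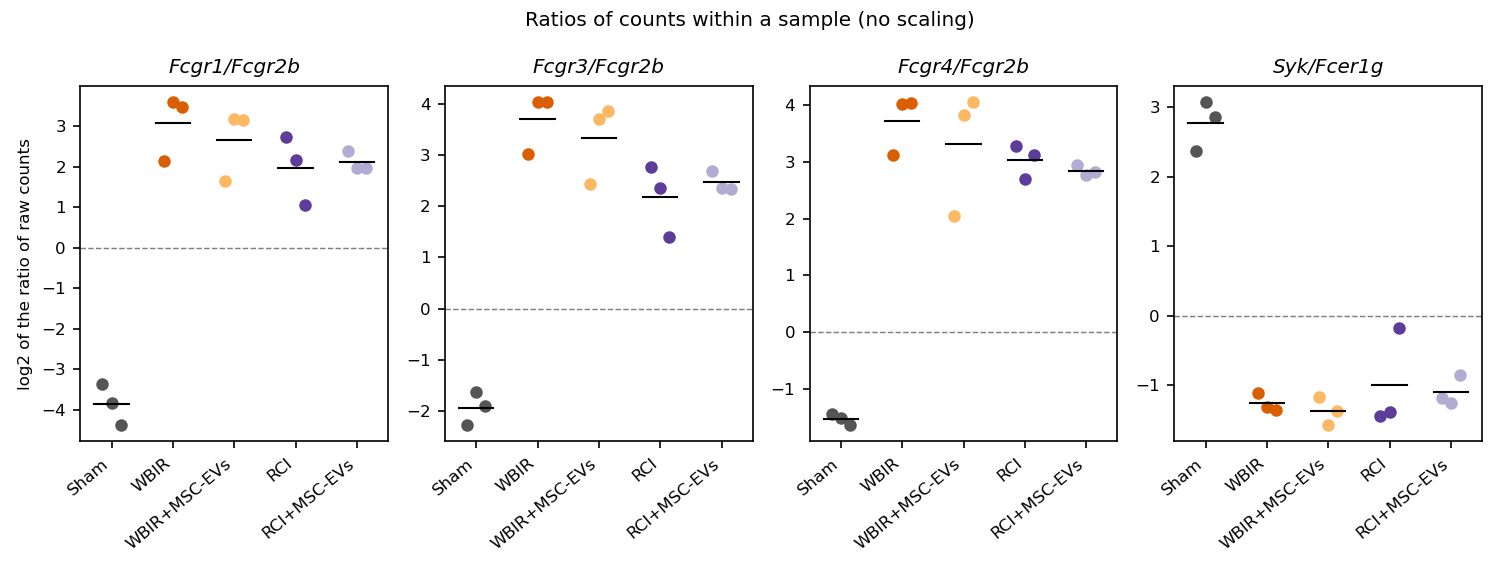
Log2 of the ratio of raw counts of 2 genes within a sample (y axis) for *Fcgr1*, *Fcgr3* and *Fcgr4* over *Fcgr2b* and for *Syk* over *Fcer1g*, with points for samples and a line for the group mean. The Sham samples stand apart from all injured samples in each panel, below 0 for the receptor ratios (means -3.85, -1.93 and -1.54) and above 0 for *Syk* over *Fcer1g* (2.77).

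Markers of the cells that carry these receptors moved as well. Of the 10 listed macrophage and monocyte markers 7 were tested, and 5 rose in WBIR, 6 in WBIR+MSC-EVs, 5 in the RCI group and 5 in the RCI+MSC-EVs group. Their summed scaled count was 2126 to 3148 in Sham, 10746 to 18411 in WBIR, 11850 to 22836 in WBIR+MSC-EVs, 15660 to 40005 in the RCI group and 17158 to 19937 in the RCI+MSC-EVs group. *Emr1*, which encodes the macrophage antigen F4/80, rose by 3.67 ± 0.36 in WBIR and 3.99 ± 0.37 in RCI on the log2 scale. The 6 T cell markers fell in 3 of the 4 comparisons and 5 of them in RCI+MSC-EVs, and 3 to 5 of the 5 neutrophil markers fell. Of the 3 tested natural killer cell markers 1 fell in the WBIR groups and 2 in the RCI groups, and of the 3 tested dendritic cell markers 1 rose in each comparison. How much of the rise of the activating receptors and their adaptors goes with the macrophage markers was not tested.

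The 7 macrophage and monocyte markers did not move as one in RCI replicate 3. *Marco*, a scavenger receptor of marginal zone macrophages, was at 30247 there against 3501 and 5125 in the other RCI samples, and made up most of the marker sum of 40005. Without *Marco* the sum of the other 6 markers was 9758 in this sample against 12159 and 11864. *Cd163*, a marker of red pulp macrophages, was at 102 against 810 and 1097, below the Sham range of 223 to 469, and *Csf1r*, the receptor for macrophage growth factors, was at 1763 against 5022 and 4048. *Emr1* was at 4676 against 4892 and 4658, and *Msr1*, another scavenger receptor, was at 1096 against 721 and 1110. *Cd14* was at 1159 against 565 and 807, and *Itgam* at 963 against 150 and 145. *Cd163* and *Csf1r* were thus low in the same sample as *Fcgr1*, *Fcgr3* and *Fcgrt*, at 445, 563 and 305, while *Marco*, *Itgam* and *Cd14* were high. The part of these differences in the results was not tested.

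Genes of the wider pathway were followed from 4 lists. Among 8 tested kinases and adaptors of ITAM receptor signalling, 0 rose and 5 fell in WBIR, 5 in WBIR+MSC-EVs, 5 in the RCI group and 4 in the RCI+MSC-EVs group. Their median log2 fold change was -0.97 in WBIR and -0.83 in RCI, near the -0.74 and -0.53 of all genes tested. *Lck*, the Src family kinase of T cells, fell most clearly in WBIR (-1.99 ± 0.34, adjusted p = 0.00015), and *Blnk*, the adaptor that Syk phosphorylates in B cells, in RCI (-1.65 ± 0.28, adjusted p = 0.00017). *Lck*, *Zap70*, *Btk* and *Blnk* were called lower in all 4 comparisons, *Prkcd* in WBIR and WBIR+MSC-EVs, and *Fyn* in RCI. *Lcp2* and *Card9* were called in none of the 4 comparisons.

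The ITAM chains of the antigen receptors, by contrast with *Fcer1g* and *Tyrobp*, all fell. *Cd3d*, *Cd3e* and *Cd247* of the T cell receptor and *Cd79a* and *Cd79b* of the B cell receptor were called lower in all 4 comparisons, with a median of -2.55 in WBIR and -2.59 in RCI. *Cd79a* had the smallest adjusted p of the list in both (-4.71 ± 0.44, adjusted p = 7.2e-07 in WBIR, and -3.96 ± 0.42, adjusted p = 2.3e-06 in RCI). It had 103 to 221 raw counts in Sham but only 6 to 9 in WBIR and 11 to 17 in RCI, from which no background was subtracted, so the size of its fall is uncertain. The list's summed scaled count was 9120 to 11440 in Sham and 997 to 1581 in RCI.

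Among receptors that pair with these adaptors or hold a related motif, 6 were tested. Of these 2 were called higher in each comparison, 1 was called lower in all but RCI+MSC-EVs, and *Clec4e*, *Klrk1* and *Klrc2* were called in none. The median log2 fold change was 0.35 in WBIR and -0.05 in RCI. *Lilra5*, whose product signals through the FcR gamma chain, rose by 1.98 ± 0.35 in WBIR (adjusted p = 0.00019) and 2.45 ± 0.35 in RCI (adjusted p = 3.4e-05). *Trem2*, a partner of DAP12 on macrophages, was called higher in all 4 comparisons as well, but had only 3 to 7 raw counts in Sham and passed the filter through the injured groups, so its size of change is uncertain. *Trem1*, a DAP12 partner typical of neutrophils and monocytes, fell by 1.84 ± 0.68 in WBIR (adjusted p = 0.028) and by 1.64 ± 0.67 in RCI (adjusted p = 0.043), and was not called in RCI+MSC-EVs. It had 17 to 71 raw counts in Sham, but only 12 to 17 in WBIR and 10 to 32 in RCI. These are near the filter of 20, which it passed in part through its higher Sham counts. No background was subtracted, so its fall is uncertain. Of 6 tested inhibitory receptors and phosphatases, *Lilrb3* and *Lilrb4* rose and *Ptpn22*, *Cd22* and *Cd5* fell in each of the 4 comparisons, and *Ptpn6* was called in none. *Cd22*, an inhibitory receptor of B cells, had the largest fall (-5.18 ± 0.49 in WBIR and -5.51 ± 0.50 in RCI). The inhibitory myeloid receptor genes rose, *Lilrb4* by 2.62 ± 0.49 in WBIR (adjusted p = 0.00029) and *Lilrb3* by 2.13 ± 0.32 in RCI (adjusted p = 5.1e-05). Calls in both directions were also common over all tested genes, of which 21.6% were called higher and 46.9% lower in WBIR, and 26.5% and 43.0% in RCI. The median log2 fold change of the 6 genes was -1.10 in WBIR and -0.65 in RCI.

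The genes whose pattern was most like that of a member were found as the smallest root mean square difference of centred log2 scaled counts over the 15 samples, for which the median over all other tested genes was between 0.76 and 1.96. *Fcgr4* was nearest to the complement genes *C2* (0.22) and *Cfp* (0.25), and *Fcer1g* was nearest to *C2* (0.28) and *Pparg* (0.31). *Fcgr3* was nearest to *Tlr4* (0.26) and *Litaf* (0.33), *Fcgrt* to *Tlr8* (0.29) and *Tlr4* (0.37), *Tyrobp* to *Cd44* and *Irf7* (both 0.22) and *Fcgr1* to *Ifi204* (0.37) and *Emr1* (0.48). The genes that fell lay elsewhere, with *Nt5e* (0.40) and *Icam2* (0.45) nearest to *Fcgr2b* and *Nfkb1* and *Traf2* (both 0.24) nearest to *Syk*. The closest members to each other were *Fcer1g* and *Fcgr4* (0.33), whereas *Fcgr2b* and *Syk*, though both lower, differed by 0.80. These values share the Sham contrast and the same scaling.

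RCI was set against WBIR to see what the burn, with the procedure around it, added in mice without vesicles. The burn cannot be told apart from the anaesthesia, morphine and fluid that went with it. *Fcgr2b* was higher in RCI, at 258, 411 and 214 against 151, 103 and 108 in WBIR, with no overlap. The difference of 1.28 ± 0.34 on the log2 scale (95% confidence interval 0.56 to 2.00) had an adjusted p of 0.095 over all genes tested and was not called, while DESeq2 gave 1.28 with an adjusted p of 0.012. Across all 26 alternatives the value ran from 0.97 to 1.47 with adjusted p from 0.012 to 0.29. *Fcgr4* was higher by 0.56 ± 0.31 (adjusted p = 0.36) and *Syk* by 0.44 ± 0.26 (adjusted p = 0.40), each also without overlap. With 7 of the reference genes left for scaling the *Fcgr4* groups overlapped, and the *Syk* groups overlapped under every other scaling. The remaining members ran from -0.21 (*Fcgrt*) to 0.37 (*Tyrobp*).

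None of the 8 members was thus called between RCI and WBIR by edgeR, and 1 had an unadjusted p under 0.05. Of all genes tested 0.704% were called and 71 had an unadjusted p under 0.05, while DESeq2 called 28 genes, 1 of them a member, and limma 3 genes and no member. The groups did not overlap for 3 of the 8 members, beside 27.0% of all genes. Without RCI replicate 3 the differences were 1.47 for *Fcgr2b* (adjusted p = 0.075), 0.70 for *Fcgr4*, 0.12 for *Syk* and 0.25 for *Fcgrt*, the last of the opposite sign.

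The vesicle comparisons asked whether treatment altered these genes in injured mice. No member was called in either injury by edgeR, DESeq2 or limma, and the treated and untreated groups overlapped for all 8 in both injuries with the reference scaling. In WBIR the difference with vesicles ran from -0.02 (*Syk*) to 0.49 (*Fcgr2b*) with SE between 0.24 and 0.51, and the smallest adjusted p was 0.997. *Fcgr2b* was at 236, 168 and 115 with vesicles against 151, 103 and 108 without, an interval for the log2 difference of -0.23 to 1.22 (unadjusted p = 0.16). Without WBIR+MSC-EVs replicate 1, the sample with the lowest total, this difference was 0.23. In RCI the members ran from -0.13 (*Syk*) to 0.28 (*Fcgrt*) with a smallest adjusted p of 0.989. The widest 95% interval in RCI was that of *Fcgrt*, from -0.81 to 1.37, and the narrowest that of *Fcer1g*, from -0.52 to 0.51.

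Over all genes tested, 0.0% were called in WBIR+MSC-EVs against WBIR and 0.0% in RCI+MSC-EVs against RCI, with 11 and 14 genes, none of them members, at an unadjusted p under 0.05. The groups lay apart for 8.92% and 10.8% of all genes and for 0 of the 8 members. Under other scalings a few groups lay apart, with lower values after vesicles and none of them called. In RCI these were *Fcer1g* and *Fcgr4* with median-of-ratios scaling and *Fcer1g* with TMM. In WBIR it was *Syk* with total counts. Within samples of the same replicate number, *Fcgr2b* was higher with vesicles in 3 of 3 WBIR pairs and *Fcgrt* in 3 of 3 RCI pairs (1714 against 1710, 1784 against 1676 and 988 against 305). No other tested member moved one way in all pairs of an injury, and of all genes tested 32.6% did so in WBIR and 39.0% in RCI. Neither gene was called with the replicate block. Averaged over both injuries, which set 6 treated against 6 untreated samples, the effect ran from -0.08 (*Syk*) to 0.29 (*Fcgr2b*), with SE of 0.17 to 0.36. The difference between the effects in RCI and WBIR ran from -0.41 (*Fcgr2b*) to 0.17 (*Fcgrt*). Of all genes tested 0.0% were called for the average and 0.0% for the difference, with 14 and 11 genes, none of them members, at an unadjusted p under 0.05. DESeq2 called 1 gene for the average, not a member, and limma none. The averaged intervals were -0.31 to 0.41 for *Fcer1g*, -0.43 to 0.50 for *Fcgr4*, -0.62 to 0.72 for *Fcgr1* and -0.21 to 0.79 for *Fcgr2b*, and the widest was that of *Fcgrt*, at -0.57 to 0.97. Values within these intervals are not excluded by the data.

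**Figure D4:**
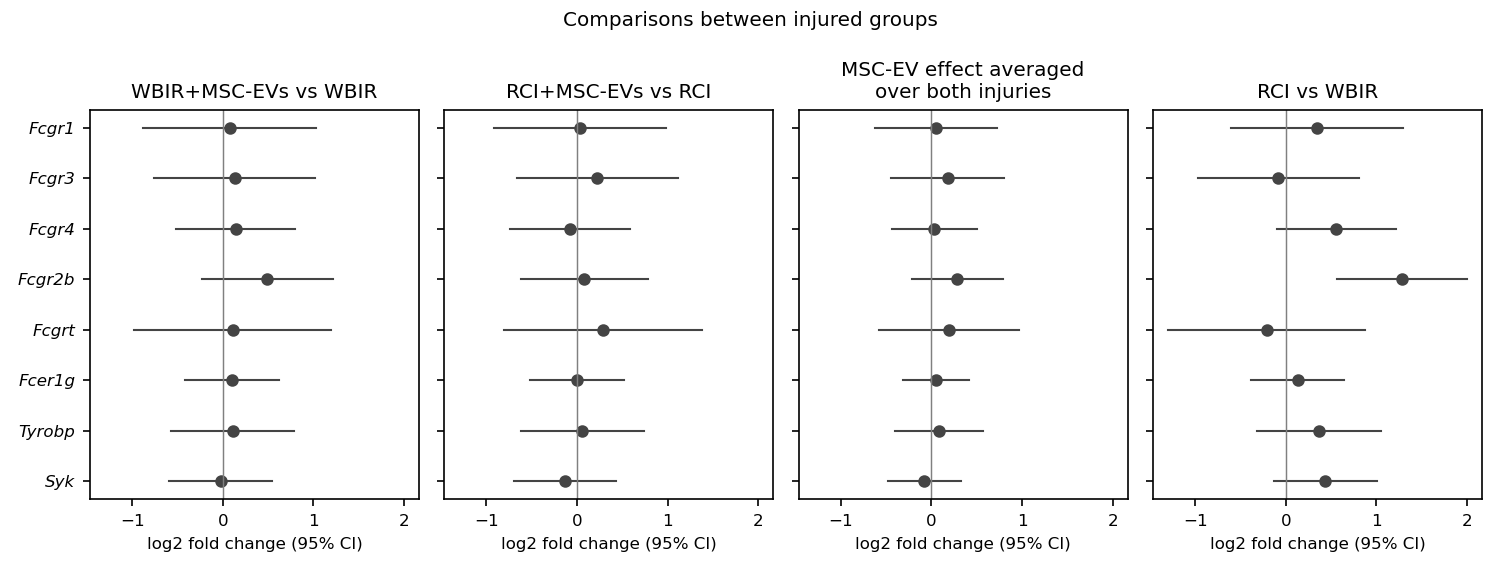
Log2 fold change (x axis, dots) with 95% confidence intervals (bars) of the 8 tested members between injured groups: vesicles in WBIR, vesicles in RCI, the average of both, and RCI against WBIR. All vesicle intervals include 0, and between RCI and WBIR the interval of *Fcgr2b*, 0.56 to 2.00, lies above 0 before adjustment for the genes tested.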

How the data were processed

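The deposited table holds raw barcode counts of the nCounter Mouse Immunology Panel for 15 samples, before the nSolver normalisation that the authors describe. The unit was inferred from whole-number entries and from column totals spanning a 6.64-fold range. No control probes were used, so background was not subtracted. The panel's genome build is not given in the sources used here, and no gene coordinates from it were used.

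Groups and replicate numbers came from the sample labels. Counts were brought to a common scale with the geometric mean of 14 reference genes per sample. The 426 of 547 endogenous genes whose mean count reached 20 were analysed in edgeR 4.0.16 (R 4.3.3, glmQLFit with robust = TRUE and glmQLFTest, the quasi-likelihood test) with 1 coefficient for each of 5 groups, 10 residual degrees of freedom and a common dispersion of 0.110, two-sided, with Benjamini-Hochberg adjustment over all tested genes. SE was the absolute log2 fold change over the square root of F. The fit was tested on simulated data in which the reference genes did not change between groups, so the scaling was not tested. The members, gene lists and marker lists were chosen with earlier results of these data known. All members are named, for each tested member the 2 most similar genes, and from each pathway list the called gene with the smallest adjusted p in each direction in WBIR and in RCI. The remaining genes of these lists and the macrophage markers were named outside this rule to complete counts.

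The alternatives, 24 planned and 2 chosen after seeing the data, covered TMM, median-of-ratios and total count scaling, the 7 least varying reference genes, the filter, DESeq2 1.42.0, limma 3.58.1 on log2(scaled count + 10), a replicate block and leaving out samples. Deviations from group means of treated and untreated samples with the same number correlated at 0.706, 0.452 and 0.323 in WBIR and at 0.287, 0.381 and 0.566 in RCI, and, each being over 0.1, the numbers were taken to pair these samples. In 3 of these 6 pairs a sample correlated more with another number (0.519, 0.328 and 0.356 against 0.452, 0.323 and 0.287), and the labels state no pairing, so it is uncertain. Correlations with Sham or between injuries had mixed signs.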

Additional observations from a re-analysis of the deposited data

How the results depend on the processing

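The Sham calls of *Fcgr1*, *Fcgr2b*, *Fcgr3*, *Fcgr4*, *Fcgrt*, *Fcer1g* and *Tyrobp* kept their direction and their side of the threshold under all 26 alternatives. *Syk* kept its direction but was not called in WBIR under 3 alternatives, in WBIR+MSC-EVs under 2, in RCI under 6 and in RCI+MSC-EVs under 3. These were TMM, median-of-ratios and, except in WBIR+MSC-EVs, total count scaling, and in RCI also leaving out Sham replicate 2 (-0.56) or either RCI replicate 1 or 2 (both -0.66). Several reference genes themselves differed between Sham and injured groups, among them *G6pdx*, at -1.70 in Sham and 1.13 in WBIR relative to the reference mean (log2).

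With DESeq2, 1 member (*Fcgr2b*) was called between RCI and WBIR. In no alternative was a member called in a vesicle comparison. With the replicate block 8 members were called in each Sham comparison and 0 in the others, and the replicate block within each injury, chosen after seeing the data, gave the same counts, so pairing changed no call. Without both RCI replicate 3 and WBIR+MSC-EVs replicate 1, an alternative also chosen after seeing the data, uncalled values near 0 turned sign. *Syk* was then at 0.046 with vesicles in WBIR, 0.18 in RCI and 0.11 on average, and *Fcgrt* at -0.18 with vesicles in RCI, 0.25 between RCI and WBIR and -0.54 for the difference between the injuries. Leaving out 1 sample at a time moved *Syk* from -0.10 to 0.046 with vesicles in WBIR, from -0.27 to 0.18 in RCI and from -0.15 to 0.080 on average. It moved *Fcgrt* from -0.18 to 0.60 with vesicles in RCI, from -0.52 to 0.25 between RCI and WBIR and from -0.29 to 0.49 for the difference. The sign of *Syk* in WBIR changed without WBIR+MSC-EVs replicate 1 or either WBIR replicate 2 or 3. The other signs changed without RCI replicate 3, and that of the *Fcgrt* difference also without WBIR+MSC-EVs replicate 1. The cause was not tested. With 3 samples a group and a spread of 33.1% between replicates, vesicle effects within the intervals given are not excluded.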
